A study of Mus musculus with 7 samples.

Results

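The 7 genes described here are Tuba3a, Tuba3b, Rpl10l, Slc25a31, Tex101, Dpep3 and Nlrp14. They are mouse genes used mainly by germ cells, those of the testis and, for Nlrp14, also oocytes. Each belongs to a family with members that work in other tissues. They are 7 of 21887 protein-coding genes in the annotation, and were chosen by name. The regions counted for them were all enriched regions that touched the gene or the 1 kb on either side of it, 13 of 133337 regions. DNA methylation was measured in hippocampal neurons of E18.5 embryos (strain C57BL/6J), kept for 11 days in a culture medium to which AraC, a drug against dividing cells, was added. One group of 3 libraries was untreated, and the other group of 3 received 55 mM KCl, which depolarises neurons, for 4 h. A pooled input library was not analysed here. No label ties the 3 libraries to different cultures or animals, so p-values measure only how these libraries vary, possibly for technical reasons, and the sex of the embryos is not given. DNA fragments with 5-methylcytosine (5mC) were pulled down with an antibody and sequenced (MeDIP-seq). The deposited height of a region is the height of its summit in a library. This assay reads no RNA, so the labelled cell type could not be checked against its expressed markers, and a height does not tell methylation in more of the cells from more methylation in each cell.

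Many genes of the male germ line carry CpG-rich start regions that gain methylation in the early embryo and stay silent in the body's other tissues. In somatic cells the repressor E2F6 and its partners bind such genes, and the α-tubulin 3 genes are among its known targets. Several of the genes are copies of a housekeeping gene that serve sperm development, when genes on the X chromosome are shut off.

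All 7 genes had a region in at least 1 library, where 65.3% of all protein-coding genes had one, and 6 of the 7 had a region called in all 6 libraries, against 35% of all genes. Of the 8 regions called in all 6 libraries, 6 lay at a gene start, 1 per gene, and 2 inside a gene. The start window, 250 bases before to 50 bases after the annotated start, was available for these 6 genes, and a region called in all 6 libraries overlapped it in 6 of 6. Of the 21263 start windows of protein-coding genes, 1.32% were overlapped by a region called in all 6 libraries and 3.63% by a region in any library. The regions covered the whole window at Tuba3a, Tuba3b, Slc25a31 and Tex101, 84.7% of it at Rpl10l and 82.7% at Dpep3. They were 772 to 949 bases long, where the median region called in all 6 libraries had 492. Since the genes were picked with earlier results of these data known, these counts are a description.

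**Figure D1:**
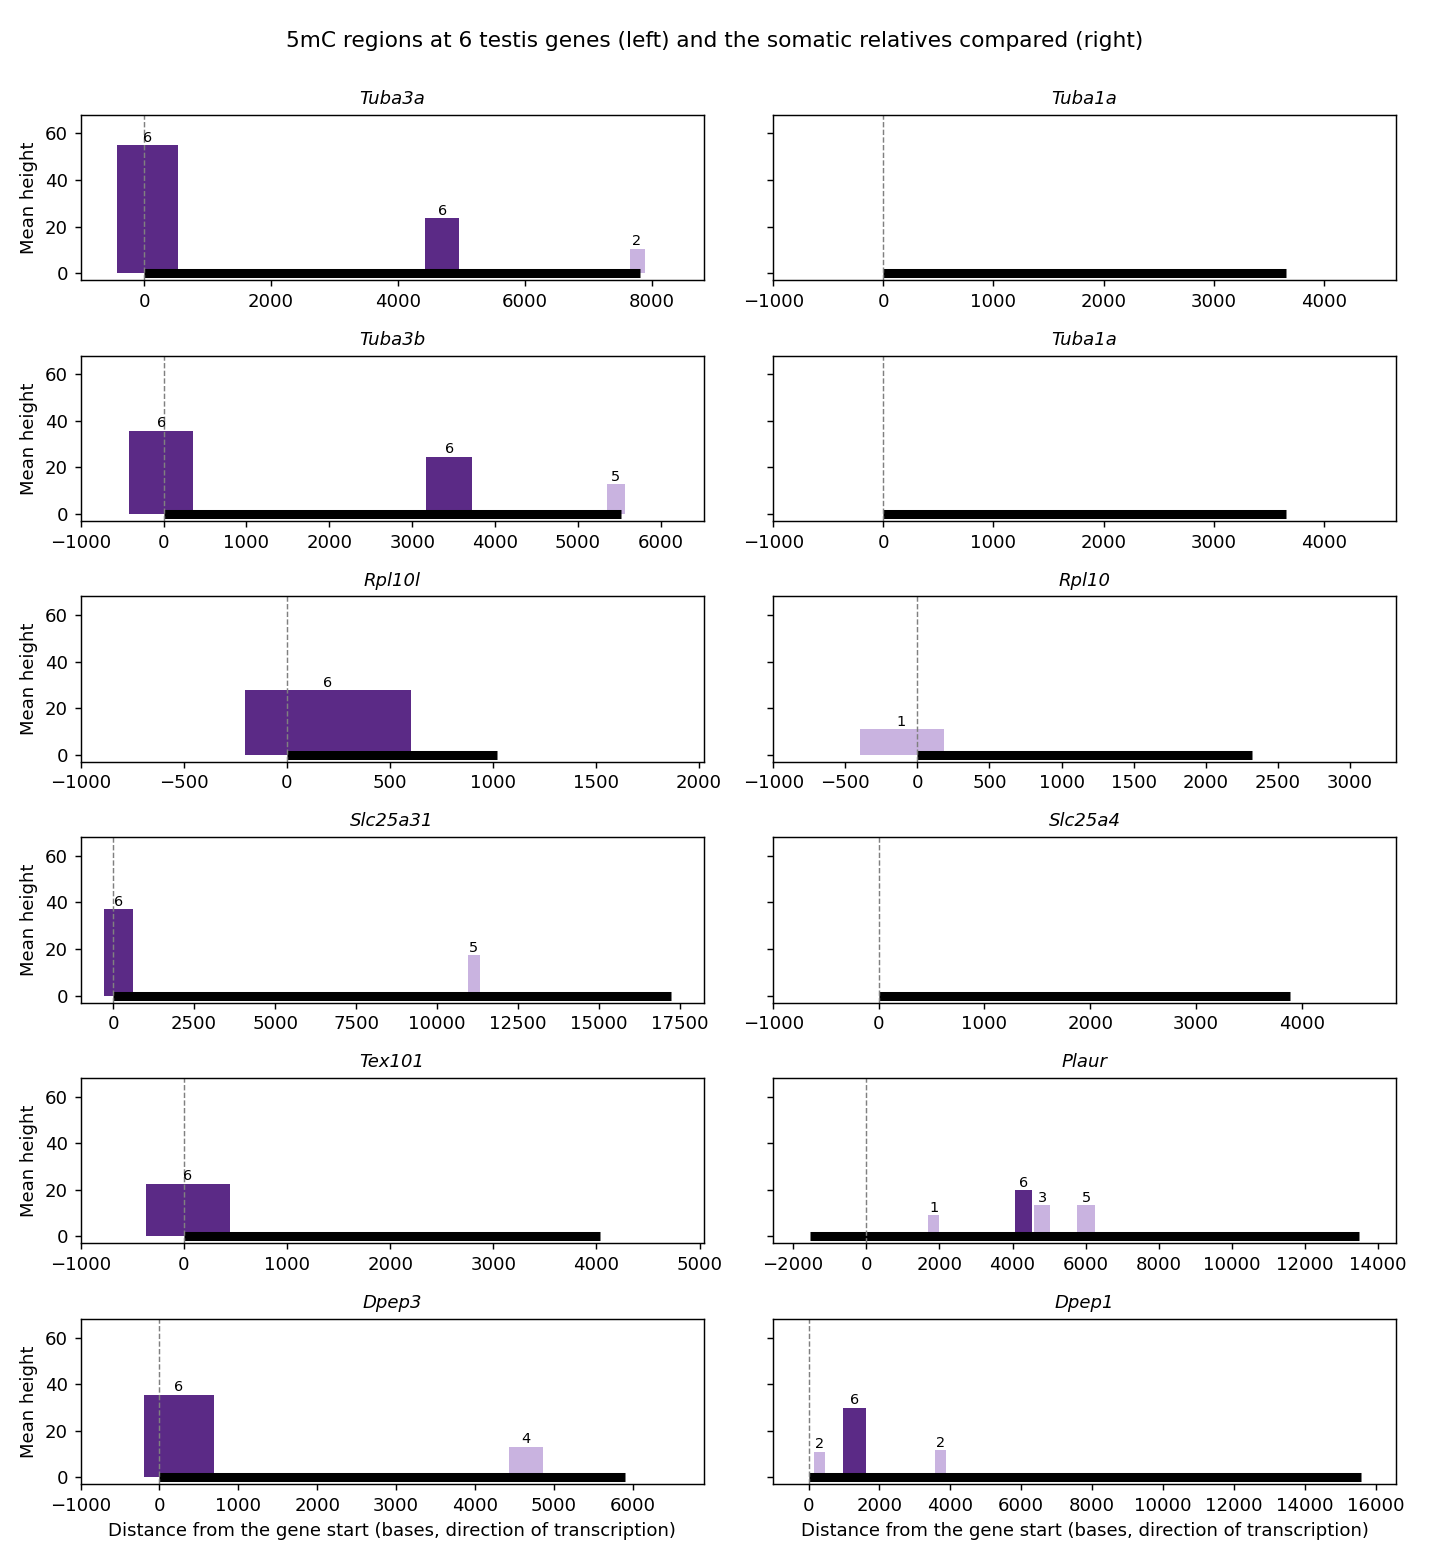
Regions at 6 of the testis genes (left) and at the somatic relative set against each (right), by distance from the annotated start (dashed line) in bases along the direction of transcription; the black bar is the gene, bar height is the mean height over the libraries that called the region, the number above is how many of 6 did (dark, all 6), and the distance scale differs between panels. Each gene on the left has a dark bar across its start, while Tuba1a and Slc25a4 have no region and Plaur and Dpep1 have theirs inside the gene.

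The bases before the start of the 2 tubulin genes, of Slc25a31 and of Tex101 are shown because the regions cover them, and those of Tuba1a and Slc25a4, somatic relatives, because no region touches them. The sequences are the 250 bases before the start from RefSeq on GRCm38.p6, 5′ to 3′ on the strand of the gene, with CpG, the dinucleotide that carries most 5mC, in capitals.
Tuba3a, chr6:125286082-125286331 (minus strand): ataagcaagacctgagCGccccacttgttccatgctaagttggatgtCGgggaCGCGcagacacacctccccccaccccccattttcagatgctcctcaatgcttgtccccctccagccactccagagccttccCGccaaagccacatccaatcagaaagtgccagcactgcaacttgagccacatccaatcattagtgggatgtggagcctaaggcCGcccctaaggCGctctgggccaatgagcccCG
Tuba3b, chr6:145615713-145615962 (plus strand): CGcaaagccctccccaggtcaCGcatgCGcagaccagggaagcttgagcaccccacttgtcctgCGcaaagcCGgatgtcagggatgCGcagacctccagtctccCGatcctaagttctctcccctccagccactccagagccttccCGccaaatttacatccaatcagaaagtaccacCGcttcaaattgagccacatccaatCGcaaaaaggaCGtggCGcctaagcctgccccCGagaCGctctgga
Tuba1a, chr15:98953502-98953751 (minus strand): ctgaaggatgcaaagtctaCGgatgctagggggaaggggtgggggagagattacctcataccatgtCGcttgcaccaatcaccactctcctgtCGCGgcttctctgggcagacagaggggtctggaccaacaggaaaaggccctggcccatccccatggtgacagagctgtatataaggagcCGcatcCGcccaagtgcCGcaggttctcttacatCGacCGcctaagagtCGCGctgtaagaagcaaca
Slc25a31, chr3:40708621-40708870 (plus strand): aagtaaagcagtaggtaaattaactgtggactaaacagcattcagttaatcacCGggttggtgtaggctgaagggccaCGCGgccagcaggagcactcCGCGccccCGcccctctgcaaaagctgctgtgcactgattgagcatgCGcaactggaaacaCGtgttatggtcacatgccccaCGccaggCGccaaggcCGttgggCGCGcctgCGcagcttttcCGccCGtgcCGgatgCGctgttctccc
Slc25a4, chr8:46211063-46211312 (minus strand): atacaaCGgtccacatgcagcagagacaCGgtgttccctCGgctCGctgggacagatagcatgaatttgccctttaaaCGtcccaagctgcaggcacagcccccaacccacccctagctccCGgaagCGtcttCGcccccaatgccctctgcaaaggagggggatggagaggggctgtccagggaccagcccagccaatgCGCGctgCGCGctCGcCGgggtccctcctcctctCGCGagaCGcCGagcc
Tex101, chr7:24672051-24672300 (minus strand): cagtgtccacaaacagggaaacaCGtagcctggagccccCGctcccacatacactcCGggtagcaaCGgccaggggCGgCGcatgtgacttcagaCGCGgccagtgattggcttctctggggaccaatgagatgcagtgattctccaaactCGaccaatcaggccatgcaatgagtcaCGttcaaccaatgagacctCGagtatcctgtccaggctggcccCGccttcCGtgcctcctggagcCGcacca
These stretches hold 8 CpG at Tuba3a, 14 at Tuba3b and 11 at Tuba1a, 18 at both Slc25a31 and Slc25a4, and 14 at Tex101. Among these stretches, CpG number alone thus did not separate the starts with a region from those without.

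Tuba3a and Tuba3b encode the same kind of α-tubulin, the subunit that pairs with β-tubulin to build microtubules, and both lie on chromosome 6. Tuba3a (125278270 to 125286081, minus strand) had the highest region of the 7 genes, across its start at 125285554 to 125286502. Its heights were 64, 69 and 50 in untreated replicates 1 to 3 and 61, 53 and 32 in KCl replicates 1 to 3. The untreated and KCl ranges overlapped, and KCl replicate 3 was the lowest. In each library this interval was higher than 92.5% to 98.3% of that library's intervals, so it ranked high in all 6.

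Tuba3b (145615963 to 145621477, plus strand) had its start region at 145615549 to 145616320, with heights of 45, 48 and 29 untreated and 47, 28 and 17 with KCl. Both groups again overlapped. The height at Tuba3a was 1.42, 1.44 and 1.72 times that at Tuba3b in the untreated libraries and 1.30, 1.89 and 1.88 times in the KCl libraries, so Tuba3a was the higher copy in 6 of 6. The summit stood 81 to 97 bases after the start of Tuba3a and between 27 bases before and 5 after the start of Tuba3b. The start windows of the copies had 204 identical bases of 265 aligned (77.0%), and 59.9% of aligned bases were identical between Tuba3a and Tuba1a.

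Each tubulin gene also had a region inside the gene called in all 6 libraries, with similar heights in both copies. At Tuba3a (125281120 to 125281655) the heights were 27, 28 and 19 untreated and 29, 24 and 14 with KCl, and at Tuba3b (145619134 to 145619688) they were 23, 32 and 24 untreated and 28, 26 and 15 with KCl. Weaker regions lay at the far ends of the genes. The one at Tuba3a (125278199 to 125278435) was called only in untreated replicates 1 and 2, at heights of 11 and 10. The one at Tuba3b (145621309 to 145621529) was called in 5 libraries, at 13, 16 and 11 untreated and 12 and 12 in KCl replicates 1 and 2. The sources used here do not give how reads that match both copies were placed, so the split of heights between Tuba3a and Tuba3b is uncertain where the copies are near-identical.

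Rpl10l is a copy without introns of Rpl10, an X-linked gene for a protein of the large ribosomal subunit, and replaces it in male germ cells. The region at Rpl10l (chromosome 12, 66283800 to 66284605; gene 66283379 to 66284401, minus strand) ran from 204 bases before the start to 601 after it. Its heights were 26, 40 and 20 untreated and 39, 26 and 15 with KCl, a wide spread in both groups. The summit moved between 65 and 369 bases after the start from library to library. Near-identical ribosomal protein copies can share reads with this gene, so its heights are uncertain in the same way.

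Slc25a31 encodes the ADP/ATP carrier of germ cell mitochondria, a relative of the widely used carriers Slc25a4 and Slc25a5. Its start region (chromosome 3, 40708587 to 40709499; gene 40708871 to 40726094, plus strand) had heights of 38, 45 and 37 untreated and 46, 36 and 20 with KCl. The untreated heights lay close together, and the KCl heights spread to both sides of them. A second region deep in the gene (40719830 to 40720182) was called in 5 libraries, at 22, 21 and 13 untreated and 18 and 13 in KCl replicates 1 and 2.

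Tex101 and Dpep3 encode proteins held by a lipid anchor on the surface of testicular germ cells. Tex101 belongs to the Ly6/uPAR family, and Dpep3 to the membrane dipeptidases. The Tex101 region (chromosome 7, 24671605 to 24672412; gene 24668012 to 24672050, minus strand) was the lowest of the 6 start regions, with heights of 20, 32 and 24 untreated and 26, 18 and 16 with KCl. Dpep3 (chromosome 8, 105973520 to 105979419, minus strand) had a start region at 105978728 to 105979617 with heights of 39, 48 and 28 untreated and 46, 32 and 20 with KCl. Its second region (105974552 to 105974983) was called in 4 libraries, at 16 and 13 in untreated replicates 1 and 3 and 10 and 13 in KCl replicates 1 and 2. Untreated and KCl heights overlapped at both genes.

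Nlrp14 encodes an NLR protein of germ cells and oocytes and stood apart from the other 6. Over its 84649 bases (chromosome 7, 107113455 to 107198103) a single region of 156 bases was called, at 107128067 to 107128222, in untreated replicate 2 alone and at a height of 10. Of the 4480 protein-coding genes between 0.5 and 2 times as long, 59.6% had a region called in all 6 libraries. The nearest region called in all 6 lay 11049 bases past the gene, at 107209152 to 107210740, across the start of Rbmxl2, a germ cell copy of the X-linked RNA-binding protein gene Rbmx. The heights at Rbmxl2 were 37, 43 and 34 untreated and 45, 33 and 20 with KCl, similar to those at Slc25a31.

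**Figure D2:**
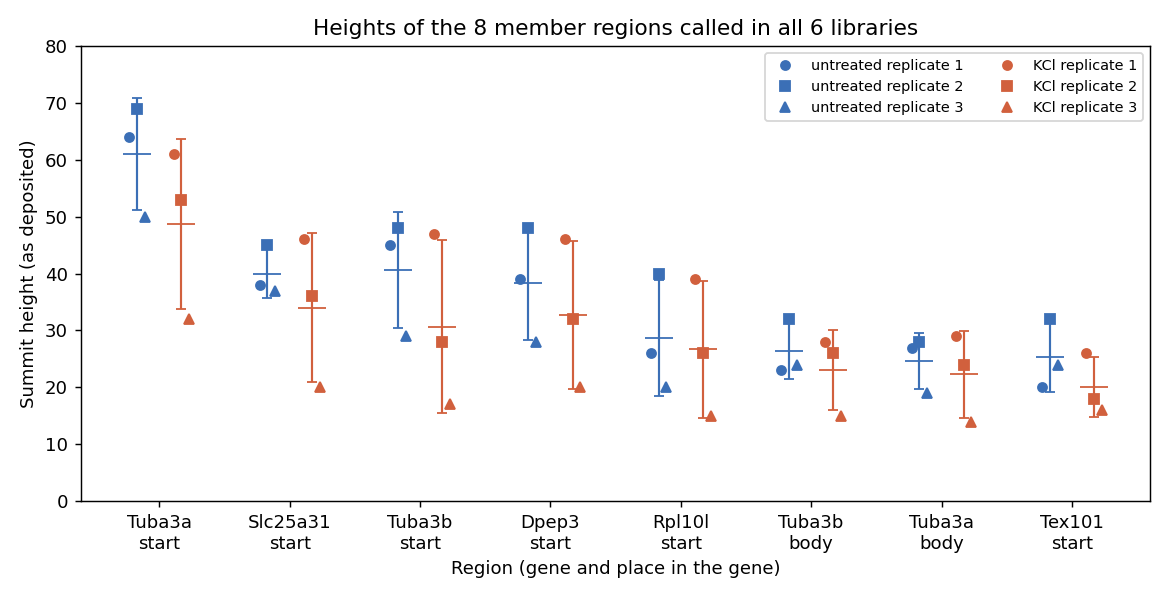
Deposited summit height (vertical axis, starting at 0) of the 8 regions of these genes called in all 6 libraries, with 1 point per library, the group mean (horizontal line) and SD (bar, n = 3 per group). Tuba3a at the gene start has the highest values, 32 to 69, and KCl replicate 3 is the lowest point of all 8 regions.

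By mean height over the 6 libraries the order of the start regions was Tuba3a (54.8), Slc25a31 (37.0), Tuba3b (35.7), Dpep3 (35.5), Rpl10l (27.7) and Tex101 (22.7). Slc25a31, Tuba3b and Dpep3 differed by less than the spread between libraries, with SDs of 4.36 to 10.2 among the untreated heights. Among the 258 regions called in all 6 libraries that overlapped a start window, Tuba3a was higher than 84.5% and Tex101 higher than 32.6%, around a median height of 28.5. The 6 regions thus spanned low and high heights among start regions.

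The number of CpG in the start window ranged from 12 at Tuba3a and Dpep3 to 22 at Slc25a31, with 13 at Rpl10l, 16 at Tuba3b and 19 at Tex101. Such numbers are near the middle of all start windows, of which 47.2% had fewer CpG than Tuba3a and 68.7% fewer than Slc25a31. Of the 5056 windows with 12 to 22 CpG, 1.92% were overlapped by a region called in all 6 libraries, compared with 1.31% of windows with fewer CpG and 0.858% of those with more. Windows of the same CpG number as those of the 6 genes were thus covered in few cases.

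**Figure D3:**
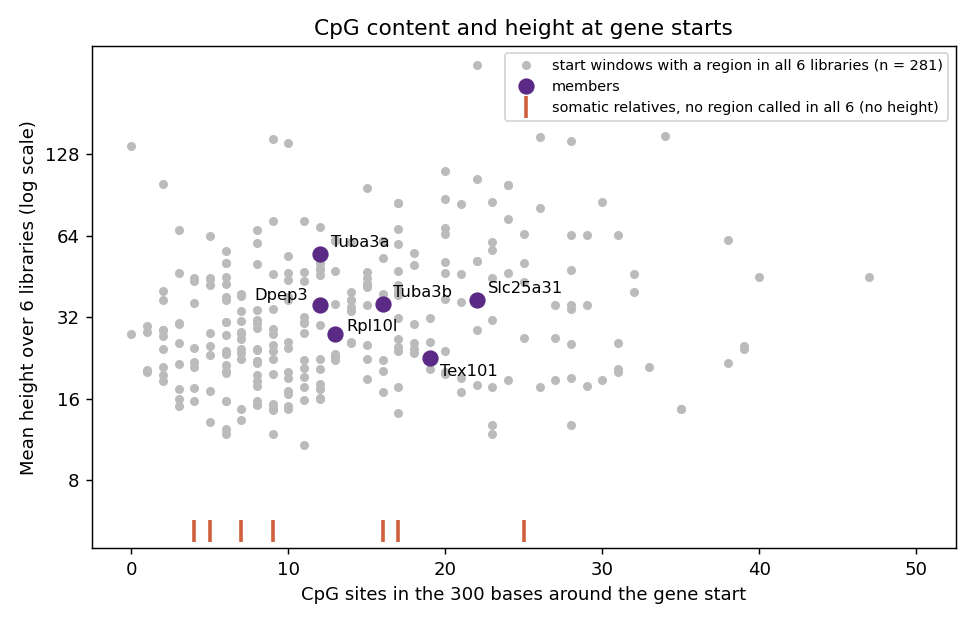
CpG sites in the 300-base start window (horizontal axis) against mean height over 6 libraries (vertical axis, log scale) for the 281 start windows overlapped by a region called in all 6 libraries; ticks at the bottom mark the CpG number of the start windows of the somatic relatives, none of which had such a region. The 6 testis genes lie at 12 to 22 CpG and 22.7 to 54.8 in height, within the cloud of other covered starts.

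The letters TCCCGC, the core of sites bound by E2F proteins, and CACGTG, the E-box bound by MAX and its partners, were searched on both strands of the start windows, and the motifs do not overlap each other. TCCCGC was found in 4 of the 6 genes, in 25.8% of all start windows and in 32.5% of those with 12 to 22 CpG. With positions counted from the start, negative before it, the match began at -119 in Tuba3a, -106 in Tuba3b, -43 in Rpl10l and 20 in Slc25a31. The matches in Tuba3a and Tuba3b lay in a stretch of bases that both copies share, so they are not independent cases. CACGTG was found in 1 of the 6 genes, at -93 in Slc25a31, and in 7.84% of all start windows. Rpl10, whose start was overlapped by a region in 1 library, also held TCCCGC. Lypd3 and Nlrp2, counted below with the wider families, held it with no region over the start window. Tex101 and Dpep3 lacked it and had a region there. Among windows with 12 to 22 CpG, 2.55% of the 1644 with TCCCGC and 1.61% of those without it had a region called in all 6 libraries. These are matches of letters and not observed binding.

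The somatic relatives were compared to see whether 5mC marked the family or the testis copy. The relatives were Tuba1a, a main α-tubulin gene of neurons, for both tubulin copies, Rpl10 for Rpl10l, Slc25a4 for Slc25a31, and Dpep1 for Dpep3. More distant relatives were Plaur, the urokinase receptor gene, for Tex101 and Nlrp3, an inflammasome gene, for Nlrp14. None of the 7 start windows of these 6 genes was overlapped by a region called in all 6 libraries, and 1, that of Rpl10, was overlapped in a single library (KCl replicate 1, height 11). Tuba1a and Slc25a4 had no region at all, although their windows held 16 and 25 CpG. The window of Rpl10 held 17 CpG. Those of Dpep1 (9), Plaur (7) and Nlrp3 (5 and 4) held fewer than any window of the 6 testis genes (12 to 22). Slc25a5, the other widely used carrier gene, had a region over its start window in 3 libraries (KCl replicates 1 to 3, heights 18, 11 and 13). Of Rpl10, Slc25a4 and Slc25a5, 2 had a region there in at least 1 library, where 3.63% of all start windows did, and 0 had one called in all 6. Dpep1 had regions inside the gene, with highest heights of 30, 30 and 32 untreated and 44, 21 and 22 with KCl. Plaur had highest heights of 16, 27 and 20 untreated and 29, 19 and 14 with KCl. Nlrp3 had intervals in 3 libraries, at heights of 14, 15 and 11.

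Within each library, the highest interval at a testis gene was then set against the highest at its relative, with 0 where none was called. Tuba1a and Slc25a4 had none in any library, so for Tuba3a, Tuba3b and Slc25a31 the difference is the height of the testis gene itself, 32 to 69, 17 to 48 and 20 to 46. Rpl10 had its one interval in KCl replicate 1, where Rpl10l was at 39, and Rpl10l was higher in 6 of 6 libraries. For these 4 pairs a test over libraries would only restate where intervals were called, and no p is given. Dpep3 and Dpep1 differed by 5.67 ± 8.45 (mean ± SD over 6 libraries; higher in 4 of 6; two-sided exact sign-flip permutation p = 0.219, 0.25 after Benjamini-Hochberg adjustment over the 7 pairs), and Tex101 and Plaur by 1.83 ± 3.19 (higher in 4 of 6; exact permutation p = 0.25, adjusted 0.25). For Nlrp14 and Nlrp3 the difference was -5.00 ± 9.92 (higher in 1 and lower in 3 of 6, with no interval at either gene in the rest). No library had an interval at both genes, so a test here would also only restate the calls, and no p is given. Leaving out 1 library moved the Dpep3 difference to between 3.2 and 7.6, lowest without untreated replicate 2. The Tex101 difference moved to between 1.2, without untreated replicate 2, and 2.8, without KCl replicate 1, and the Nlrp14 difference to between -8, without untreated replicate 2, and -3, without untreated replicate 3. By regions called in all 6 libraries, Dpep3 and Tex101 had one over the start window and Dpep1 and Plaur did not. Only 1.32% of all start windows had such a region, so its absence at the relatives is not a result about them. The windows of Dpep1 and Plaur also held fewer CpG (9 and 7) than those of Dpep3 and Tex101 (12 and 19). The highest heights of the 2 surface genes and their relatives were not told apart. Each is a maximum over the whole gene, and gene length was not matched. Tex101 has 4039 bases and Plaur 15034, and Dpep3 has 5900 and Dpep1 15578. The summit stood 155 to 251 bases after the start at Dpep3 and 2 to 82 at Tex101. In the relatives' regions it stood 1269 to 1285 bases after the start at Dpep1 and 4285 to 4397 at Plaur. Dpep1 also had a region from 153 to 474 bases after the start, called in untreated replicates 1 and 2 at a height of 11. The CpG number of the intervals was not matched.

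The wider families were then counted, beside the 1.32% of all start windows with a region called in all 6 libraries, so that a count of 0 in a short list is not a result about the family. For regions anywhere at a gene, the shares of all protein-coding genes were 65.3% in at least 1 library and 35% in all 6. Of 6 other α-tubulin genes, 2 had a region and 0 had one over a start window, and the single gene with a region called in all 6 libraries was Tuba8, inside the gene, at heights of 16 to 28. Among 7 Ly6/uPAR genes, Plaur, Lypd3, Ly6k and Cd177 had a region called in all 6 libraries, and 0 of the 5 with a start window had one there. The start window of Lypd4 was overlapped by a region called in 5 libraries, at heights of 8 to 14. The same region also touched another gene, Dmrtc2. Lypd3 reached heights of 24 to 56. Of 12 NLR genes of the germ line, Nlrp2, Nlrp4e and Nlrp5, which act in oocytes and early embryos, had a region called in all 6 libraries, and 0 of the 10 with a start window had one there. The Nlrp5 region (chromosome 7, 23426979 to 23427617) had heights of 97, 112 and 84 untreated and 121, 92 and 61 with KCl. These were above every region of the 7 genes described here, and the region lay inside Nlrp5. Of 6 NLR genes of immune cells, Nlrp1b alone had a region called in all 6 libraries, at 22 to 48.

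A list of 18 other testis copies of somatic genes gave 6 genes (33.3%) with a region called in all 6 libraries, near the 35% of all genes. Of the 16 with a start window, 4 had a region over it in at least 1 library and 3 had one called in all 6, namely Tktl2, a copy of transketolase, Rbmxl2, and Rpl39l, a ribosomal protein copy. Their heights were 22 to 40 at Tktl2 (chromosome 8, 66511608 to 66512285) and 13 to 33 at Rpl39l (chromosome 16, 10169953 to 10170396). Pdha2, the testis copy of a pyruvate dehydrogenase subunit, had a region at 27 to 64 inside the gene (chromosome 3, 141211104 to 141212135). Of 16 somatic counterparts of these copies, Cox6b1 alone had a region called in all 6 libraries and 0 of 15 had one over a start window, although 3 of 15 had a region there in at least 1 library. These were the X-linked genes Rpl39 (5 libraries, heights 10 to 19), Cstf2 (3 libraries, 9 to 13) and Cetn2 (1 library, 10). The Cetn2 region also touched another gene, Nsdhl. Over all genes 3.63% of start windows had a region in at least 1 library. Of 13 sperm surface genes 4 had a region called in all 6 libraries, and 2 of 11 had such a region over a start window. These were Spaca1 (heights 38 to 81), an acrosome membrane protein gene, and Spesp1 (18 to 35). No difference between these lists was tested.

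No region of these genes passed the test for a change with KCl after 4 h. The comparison used limma on log2(height + 1) over 20537 regions called in all 6 libraries with a mean height of at least 18.7, and 0% of them passed an adjusted p of 0.05, with 0 higher and 231 lower at an unadjusted p under 0.05. Once each library was centred on its median height, those numbers were 405 and 342, and again 0 passed. The median log2 change of all tested regions was -0.25. Leaving out KCl replicate 3 brought it to -0.02 and leaving out KCl replicate 1 to -0.46, so each change is given relative to that median. The 8 tested regions of the 7 genes had relative log2 changes of -0.23 to 0.10, 3 above and 5 below the median region, with a median of -0.0366 where that of all tested regions is 0. Untreated and KCl heights overlapped in each of the 8, and among all tested regions 4.14% had all KCl heights below and 0.0292% all KCl heights above the untreated ones.

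The Tuba3b start region had the lowest value, with heights of 40.7 ± 10.2 untreated and 30.7 ± 15.2 with KCl (SD, n = 3 each) and a change of -0.23 on that scale (SE 0.19). Its log2 change as deposited, before the median was subtracted, was -0.48 (limma, adjusted p = 0.932). Tuba3a at the start had 61.0 ± 9.85 and 48.7 ± 15.0, a relative log2 change of -0.11 (SE 0.14). Rpl10l had 28.7 ± 10.3 and 26.7 ± 12.01, a relative log2 change of 0.10 (SE 0.21). The changes at Tex101 (-0.08), Slc25a31 (-0.05) and Dpep3 (-0.02) and inside Tuba3a (0.07) and Tuba3b (0.03) were each smaller than their SEs of 0.17 to 0.22. Adjusted p was 0.932 or 0.933 for all 8 regions as deposited and 1.00 after median centring, by limma with Benjamini-Hochberg adjustment. The other 5 regions of these genes lacked a call in at least 1 library and were left untested. Of the 13 regions, 0 were called in all 3 KCl and 0 untreated libraries, and 0 in all 3 untreated and 0 KCl libraries, where 0.0367% and 1.01% of all regions were. KCl replicate 3, which held the fewest intervals of the libraries (34834, where the others held up to 93470), was the lowest at all 8 regions, and its part in the lower KCl means was not tested.

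**Figure D4:**
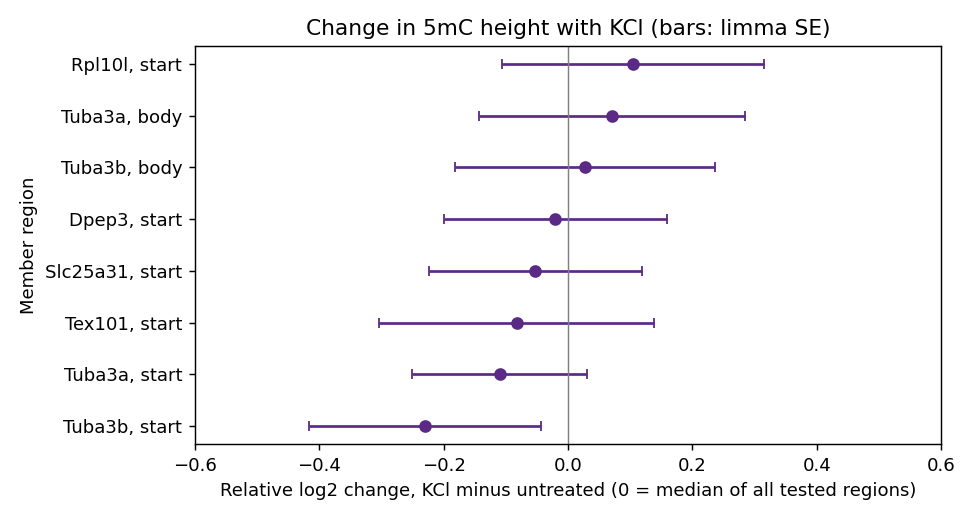
Relative log2 change in height, KCl minus untreated (horizontal axis, 0 is the median of all tested regions), for the 8 tested regions of these genes, with limma SEs as bars (3 libraries per group). The values run from -0.23 at the Tuba3b start to 0.10 at the Rpl10l start, and none passed the adjusted threshold.

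For each gene with a region called in all 6 libraries, the 7648 protein-coding genes with such a region outside the 7 genes were ranked by the Euclidean distance of the 6 log2(height + 1) values. The nearest was Mvb12b for Tuba3a (distance 0.12), Wbp1l for Tuba3b (0.25), Ap2b1 for Rpl10l (0.18), Cyb5a for Slc25a31 (0.15), Rexo4 for Tex101 (0.20) and Samd12 for Dpep3 (0.0956). Heights at Mvb12b were 61, 69 and 52 untreated and 64, 53 and 33 with KCl, within 3 units of those at Tuba3a in every library. Rbmxl2 was the third nearest to Slc25a31 (0.19). The points share the depth of the 6 libraries, so near values over libraries are common among regions of like height.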

How the data were processed

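MeDIP-seq of 3 untreated and 3 KCl libraries was used. Reads were aligned with BWA and regions called with SICER on mm10, per the submitters' processing notes, which give no versions. The depth is unknown, since the sources used here give no read totals, caller settings or scaling of the heights between libraries. The deposited values are summit heights, whole numbers of at least 6, in a signal-like unit of the authors; the file holds 13 tracks, per the file headers. Each active region took its highest summit per library. Genes and starts came from RefSeq (GRCm38.p6, the coordinates of mm10), and coordinates are 1-based.

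Regions called in all 6 libraries whose mean height reached the 25th percentile were tested with limma 3.58.1 (R 4.3.3) on log2(height + 1), with an intensity trend and Benjamini-Hochberg adjustment over all tested regions, two-sided, and SEs after median centring. Scripts were tested on simulated data. The genes, lists and tests were chosen with earlier results of these data known. All 7 genes, the relative set against each, and the members of 9 fixed lists with a region called in all 6 libraries could be named; not all of the latter are. Same-numbered libraries deviated together from their group means (correlations of 0.11, 0.11 and 0.11 across regions), above the limit of 0.1, so the numbers were taken as pairs in an alternative, although no label ties a number to a culture or day. Other alternatives were another pseudocount, filter, scaling, gene window and overlap, and leaving out each library.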

Additional observations from a re-analysis of the deposited data

How the results depend on the processing

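No region passed in any of the 11 alternatives for the KCl comparison, including the replicate block with centred heights, which changed no call (0 of 20537 passed, lowest adjusted p = 0.461). Without KCl replicate 1 the number of regions lower at an unadjusted p under 0.05 rose from 231 to 4325, with a lowest adjusted p of 0.0842 by limma. The changes at the starts of Tuba3a and Tuba3b kept their sign in all 11, from -0.18 to -0.0677 and from -0.37 to -0.11 without single libraries. The other 6 turned in sign when a library was left out. Inside Tuba3a the change ran from -0.0124 (without untreated replicate 3) to 0.14, and at Rpl10l from -0.0295 (without untreated replicate 3) to 0.28. Inside Tuba3b it ran from -0.0674 (without KCl replicate 2) to 0.0888, with -0.0579 without untreated replicate 1. Slc25a31 ran from -0.12 to 0.0463 (without KCl replicate 3), and Tex101 from -0.23 to 0.0109 (without untreated replicate 2). Dpep3 ran from -0.14 to 0.0728 (without untreated replicate 2), with 0.00937 without untreated replicate 1 and 0.0512 without KCl replicate 3. The causes were not tested. A total of 6 genes had a region called in all libraries under each alternative, and Nlrp14 lost its single region with a height of at least 15, an overlap of at least 200 bases, libraries cut to 34834 intervals, or untreated replicate 2 left out. The mean differences from somatic relatives kept their sign in each alternative. For Tuba3a, Tuba3b and Slc25a31 this sign was fixed in advance, since Tuba1a and Slc25a4 had no interval in any library. Their ranges show only how the heights of the testis genes themselves varied. Without single libraries the differences ran from 52 to 59.4 for Tuba3a, 33.2 to 39.4 for Tuba3b, 35.2 to 40.4 for Slc25a31 and 23 to 28 for Rpl10l. With 5 libraries the exact test cannot go below 0.0625, so those values carry no test.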

Other observations

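Slc25a5, the X-linked ADP/ATP carrier gene, had a region over its start (chromosome X, 36795422 to 36795839) called in KCl replicates 1 to 3 at heights of 18, 11 and 13 and in 0 untreated libraries. Its second region (36796204 to 36796453) was called in untreated replicate 1 alone, at 10. The start region of Cstf2 (chromosome X, 134059112 to 134059570) showed the opposite, with calls in untreated replicates 1 to 3 at 13, 12 and 9 and in 0 KCl libraries. Of all 133337 regions, 0.0367% were called in all 3 KCl and 0 untreated libraries and 1.01% in all 3 untreated and 0 KCl libraries. Both genes were chosen after their values were seen, and neither was tested. Hspa1l, a testis copy of a heat shock protein gene, had a region inside the gene (chromosome 17, 34976877 to 34977983) with heights of 65, 82 and 52 untreated and 61, 46 and 33 with KCl. Cox8c, a testis subunit of cytochrome c oxidase, had a region across an edge of the gene (102899306 to 102900534 on chromosome 12). The region lay at 102899031 to 102899659, with heights of 33, 47 and 36 untreated and 60, 34 and 22 with KCl. Ly6k, a surface protein gene of male germ cells, had a pair of regions called in all 6 libraries (chromosome 15), at heights of 29 to 55 (74796380 to 74796894) and 18 to 44 (74799298 to 74800354).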
